A study of Mus musculus with 9 samples.

Results

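The genes that copy DNA and supply its building blocks were examined as a module of 48 genes in the mouse uterus shortly before implantation, at gestation day (GD) 3.5. The module was written down by gene name, from the function of the genes and with earlier results of these data known, and it holds 48 of the 18193 genes that the arrays name. All 48 were measured, no filter on low values was applied, and a gene was read at its probe set (the group of short probes that reads a transcript) with the highest mean intensity over the 9 arrays. RNA of whole uteri was hybridised to Affymetrix arrays of the mouse genome, with 3 arrays for each of 3 groups. Control mice carried floxed *Mig-6* alone or together with floxed *Erbb2*, and the sources used here do not tell which of these a control array holds. In *Mig-6* d/d mice a cre recombinase driven from 1 *Pgr* allele (*Pgr* cre/+) removed *Mig-6* from cells that express the progesterone receptor, and the third group, called the double knockout below (*Mig-6* d/d *Erbb2* d/d), lacked *Erbb2* in the same cells too. Both knockouts therefore also carry the cre allele, which the floxed controls lack by their names. The females were mated to wild-type males and the morning of the vaginal plug set the day count; the strain background was mixed (C57BL/6 and 129P2/OlaHsd). The labels describe uteri at 2 weeks of age, whereas the methods give adult mice. Uterine RNA of several mice was pooled for each genotype. Nothing states that the 3 arrays of a group hold separate pools, so the p-values may measure only technical spread.

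Before a cell divides, the origin recognition complex (ORC) marks the start points of DNA copying, and *Cdc6* and *Cdt1* load the MCM helicase there, a step called licensing that geminin (*Gmnn*) blocks. Kinases and helper proteins then switch the helicase on, polymerases copy the strands while the sliding clamp PCNA holds them in place, and ribonucleotide reductase and thymidine kinase supply deoxynucleotides. Most of these genes are transcribed when E2F factors are released as a cell enters S phase. In the uterus, estrogen drives the luminal epithelium into DNA synthesis soon after mating, and progesterone stops it before implantation. MIG-6, which is encoded by *Errfi1*, is an adaptor that restrains the ERBB family of growth factor receptors, to which ERBB2 belongs.

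The stretches before the start sites of the genes were searched for E2F-type words, because the members share this kind of control by background knowledge and the data bear on genes that moved together. RefSeq windows of the assembly GRCm38.p6, from 250 bases before to 50 bases after each start, were given for 40 of the 48 members, as 49 windows. The words TTTCCCGC, TTTGGCGC, TTTGCCGC and TTTCGCGC were counted on both strands, and at least 1 of them stood in 15 of the 40 genes (37.5%), against 704 of 27025 genes of the whole table (2.6%). Shown here are 4 members that were called increased in *Mig-6* d/d at their brightest probe set, *Cdc6*, *Mcm5*, *Mcm6* and *Rfc3*, and 3 that were not, *Orc1*, *Mcm7* and *Gins3*. Each is written 5′ to 3′ along the strand of its gene with the E2F-type words in capitals.
Cdc6 (chr11:98907983-98908050, plus strand): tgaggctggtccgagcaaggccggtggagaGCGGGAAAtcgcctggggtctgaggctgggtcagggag
Mcm5 (chr8:75109326-75109397, plus strand): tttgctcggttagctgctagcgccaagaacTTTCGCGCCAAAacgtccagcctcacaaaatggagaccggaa
Mcm6 (chr1:128359715-128359845, minus strand): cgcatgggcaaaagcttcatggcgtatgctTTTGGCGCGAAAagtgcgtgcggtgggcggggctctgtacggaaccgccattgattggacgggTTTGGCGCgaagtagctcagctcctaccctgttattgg
Rfc3 (chr5:151651209-151651248, minus strand): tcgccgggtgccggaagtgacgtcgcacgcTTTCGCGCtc
Orc1 (chr4:108579397-108579453, plus strand): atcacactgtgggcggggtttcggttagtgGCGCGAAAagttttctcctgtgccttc
Mcm7 (chr5:138172011-138172078, minus strand): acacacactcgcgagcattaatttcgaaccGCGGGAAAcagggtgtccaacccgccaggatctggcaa
Gins3 (chr8:95633488-95633555, plus strand): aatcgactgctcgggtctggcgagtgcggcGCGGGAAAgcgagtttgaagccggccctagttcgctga
In *Mcm5*, and at the first site of *Mcm6*, a pair of words overlapped on opposite strands, which gives 1 run of capitals. The stretches shown all end before the start site, and a further word of *Rfc3*, at position 1, and one of *Mcm7*, at position 17, lie beyond them. Among the called increases in *Mig-6* d/d, 9 members had a window and 5 of these held a word, the fifth being *Mcm3*, whose pair of words lay after the start, at positions 20 and 39. Of the members not called, 31 had a window and 10 held a word. The box CCAAT stood in 62.5% of member genes against 41.1% of all genes, and the GC box GGGCGG in 77.5% against 38.2%. The words TTTGAA and TTCGAA, the core of an element of genes expressed later in the cell cycle, stood in 22.5% against 21.7%. A match of letters is a description and not a binding site.

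The level of *Errfi1* checks the labels. Its brighter probe set read 454, 564.5 and 286 on the control arrays, 15.1, 15.96 and 255 on the arrays labelled *Mig-6* d/d and 76.05, 29.8 and 40.3 on the double-knockout arrays. At another probe set the 3 arrays labelled *Mig-6* d/d read 11.2, 10.0 and 37.0, and the controls 33.7 to 65.1. The array labelled *Mig-6* d/d replicate 3 thus lay near the control level. The numbers of members called at the brightest probe set are given with it and without it. Counts such as those of arrays without overlap, of the t-test and of calls at any probe set are given with it only. The position of these probe sets relative to the deleted part of the gene was not known here. At the brighter probe set *Errfi1* differed from control by -3.41 on the log2 scale in *Mig-6* d/d (limma adjusted p = 0.0719). Without the array labelled *Mig-6* d/d replicate 3 this was -4.75 (limma adjusted p = 0.00342). In the double knockout it was -3.22 (limma adjusted p = 0.303). The log2 difference of *Erbb2* between the double knockout and *Mig-6* d/d was -1.54 (limma adjusted p = 0.00649, SE 0.24). From control, *Erbb2* differed by 0.24 in *Mig-6* d/d (limma adjusted p = 0.672) and by -1.30 in the double knockout (limma adjusted p = 0.0649). The deposited intensities were on a linear scale, with a median of 7.87 to 8.24 per array. Precision is limited by the number of arrays. All fold changes below are differences of mean log2 intensities. To be called, a probe set needed an adjusted p (Benjamini-Hochberg, over all 45037 probe sets) under 0.05 in limma and a change of more than 1.5-fold. Only a called gene is said to rise or fall. Because the RNA came from the whole organ, fewer cells of a type and less RNA per cell cannot be told apart.

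The first comparison asked how loss of *Mig-6* altered these genes. Of the 48 members, 45 had a higher mean in *Mig-6* d/d, 12 were called increased and 0 decreased. The median log2 fold change of the members was 0.47, beside -0.03 over all genes. Called increased were 25% of the members, and 2.55% of all genes (1.71% of all probe sets). The 3 arrays of *Mig-6* d/d lay above all 3 control arrays in 29 members (60.4%) and in 11.6% of all genes. By role, the calls fell on 4 of 7 MCM genes, 2 of 9 genes of origin recognition and licensing, 2 of 8 genes that switch the helicase on, 2 of 6 genes of the clamp and its loader, 1 of 3 genes of single-strand binding and 1 of 4 genes of deoxynucleotide supply. No gene of polymerases and primase (8) or of Okazaki fragment processing (3) was called by limma at the brightest probe set. In limma 3 and 2 of them had an unadjusted p under 0.05, as had 4365 of all 18193 genes in either direction. For the arrays the methods name no test, and an unpaired t-test stands in their general statistics section. By that t-test with the fold limit, 15 of all 48 members were higher at an unadjusted p under 0.05, beside 3.31% of all genes. After Benjamini-Hochberg adjustment 0 members passed. For the second comparison this test gave 16 members that were lower, beside 4.66% of all genes, and again 0 after adjustment.

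The second comparison asked how these genes stood once *Erbb2* was removed as well. Set against *Mig-6* d/d, the double knockout had 45 of the 48 members lower, 12 called decreased and 0 increased, with a median log2 fold change of -0.46 beside 0.03 over all genes. Called decreased were 25% of the members, and 3.76% of all genes (2.75% of all probe sets). All 3 arrays of the double knockout lay below those of *Mig-6* d/d in 31 members (64.6%) and in 14.2% of all genes. The clamp and its loader had 4 of 6 genes called, the MCM genes 2 of 7, origin recognition and licensing 2 of 9, helicase activation 2 of 8, single-strand binding 1 of 3 and deoxynucleotide supply 1 of 4. Again no gene of polymerases and primase or of Okazaki fragment processing was called. Both comparisons use the same *Mig-6* d/d arrays, so their values are set side by side below and neither is a repeat of the other. A rise below is a change from control to *Mig-6* d/d, and a fall is a change of the double knockout relative to *Mig-6* d/d.

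**Figure D1:**
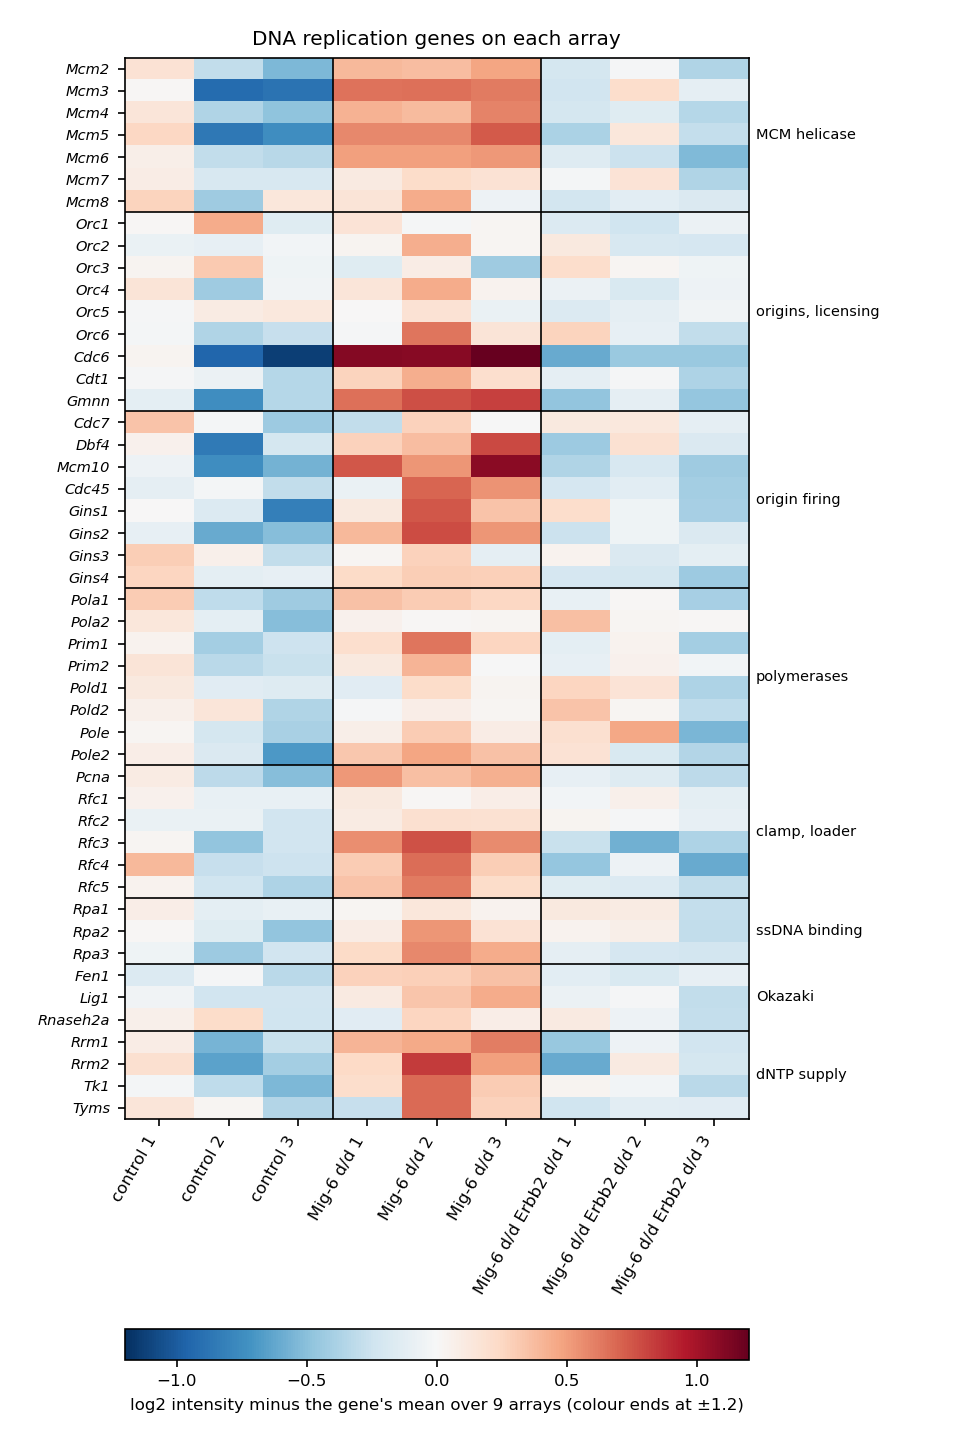
Heat map of the 48 members (rows, grouped by role) on the 9 arrays (columns); colour is the log2 intensity minus the gene's mean over the 9 arrays, red higher and blue lower. The *Mig-6* d/d columns are mostly red, with *Cdc6* reaching the end of the scale, while the first control column is redder than the other control columns.

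The MCM2 to MCM7 proteins form the ring that unwinds DNA at the fork. *Mcm3* read 142, 73.9 and 76.1 on the control arrays, 220.2, 223 and 217 on the *Mig-6* d/d arrays and 119.7, 163 and 130.1 on the double-knockout arrays. Those of *Mig-6* d/d lay close together above all others, and control replicate 1 stood well above the other controls. *Mcm3* rose by 1.25 on the log2 scale in *Mig-6* d/d (limma adjusted p = 0.0206, SE 0.22), and the double knockout differed from *Mig-6* d/d by -0.69 (limma adjusted p = 0.102, SE 0.22).

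*Mcm5* had the same shape on the arrays, with 296, 138 and 149 in control, 373, 373 and 415 in *Mig-6* d/d and 192, 275 and 206 in the double knockout. Control replicate 1 again lay far above the other controls, yet below each *Mig-6* d/d array. The rise of *Mcm5* in *Mig-6* d/d was 1.08 (limma adjusted p = 0.0488, SE 0.26), and its log2 fold change in the second comparison was -0.81 (limma adjusted p = 0.0961, SE 0.26). *Mcm4* read 317, 222 and 205 in control, 382, 371 and 433 in *Mig-6* d/d and 247, 258 and 225 in the double knockout. At this probe set no array of another group reached the *Mig-6* d/d arrays. *Mcm4* rose by 0.70 (limma adjusted p = 0.0409, SE 0.16) and fell by 0.70 (limma adjusted p = 0.0267, SE 0.16). A dimmer probe set of *Mcm4* was called in neither, with 0.83 (limma adjusted p = 0.115) and -0.86 (limma adjusted p = 0.0781). There control replicate 1, at 293, lay above *Mig-6* d/d replicate 1, at 279. With the mean taken over the probe sets of *Mcm4*, its rise was not called. *Mcm6* read 173, 135 and 131, 232, 232 and 237 and 148, 138 and 115 in the same order of groups. Its *Mig-6* d/d values differed little from one another and stood clear of both other groups. *Mcm6* rose by 0.69 (limma adjusted p = 0.0271, SE 0.13) and fell by 0.81 (limma adjusted p = 0.00824, SE 0.13).

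The remaining MCM genes were not called at the brightest probe set. *Mcm2* had log2 fold changes of 0.63 in *Mig-6* d/d (limma adjusted p = 0.0722, SE 0.17) and -0.60 in the second comparison (limma adjusted p = 0.0595, SE 0.17), without overlap of the arrays. *Mcm7*, another subunit of the ring, had 0.27 (limma adjusted p = 0.368, SE 0.14). *Mcm8*, which belongs to a separate helicase of DNA repair, read 7.32 to 13.4 and had 0.19 (limma adjusted p = 0.671, SE 0.18). The calls depended on single libraries to different degrees. *Mcm4* and *Mcm5* were called in *Mig-6* d/d without control replicate 1 but not without any 1 of the other 8 arrays, with log2 fold changes of 0.57 to 0.89 and 0.88 to 1.43 and adjusted p up to 0.133 and 0.157 (limma). The call of *Mcm3* was lost when control replicate 2, *Mig-6* d/d replicate 1 or the array labelled *Mig-6* d/d replicate 3 was left out (log2 fold change 1.08 to 1.55 over the 9 arrays left out). *Mcm6* was not called without control replicate 2 or 3 or any 1 library labelled *Mig-6* d/d (0.61 to 0.81). Set against *Mig-6* d/d, the double knockout had *Mcm6* called without each of the 9 arrays, and *Mcm4* was not called without *Mig-6* d/d replicate 1 or 3 or any 1 double-knockout array (-0.74 to -0.63).

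**Figure D2:**
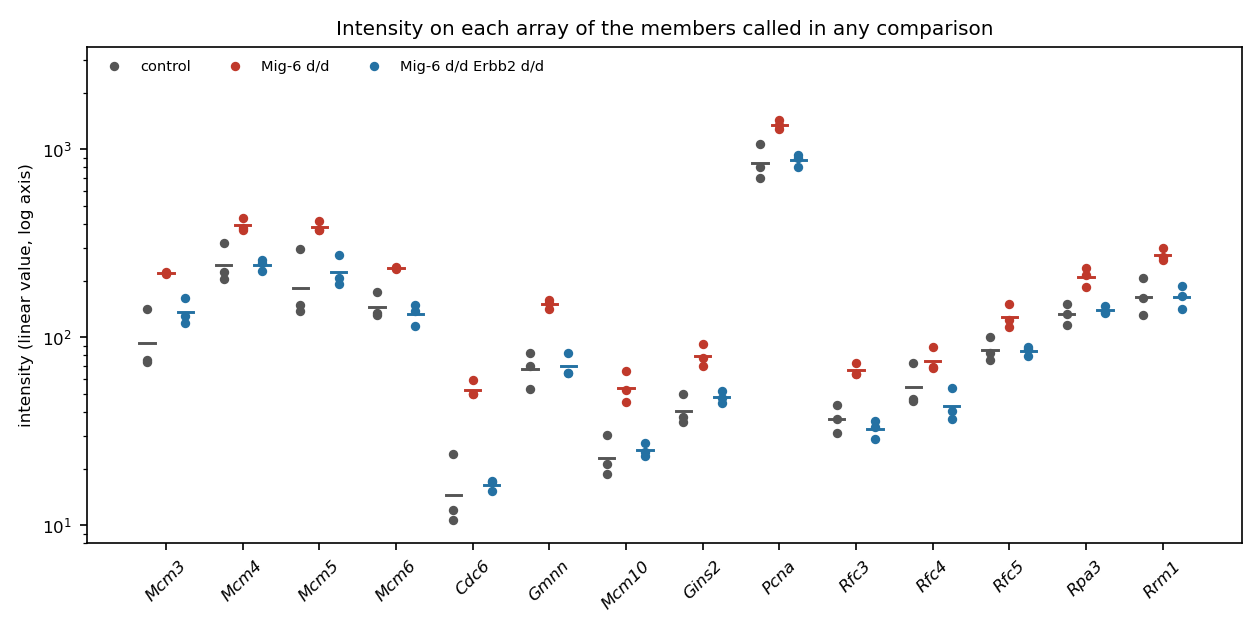
Linear intensity (log axis) of the 14 members called in at least 1 comparison, 1 point per array and a bar at the mean of the log2 values, for control (grey), *Mig-6* d/d (red) and the double knockout (blue). The red points lie above the grey and the blue points of the same gene in each gene except *Rfc4*, where control replicate 1 lies among them.

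Among the genes of origin recognition and licensing, *Cdc6* and *Gmnn* changed and no ORC subunit passed the test at its brightest probe set. *Cdc6*, an ATPase that joins ORC to recruit the helicase, read 23.9, 12.0 and 10.6 in control, 50.04, 49.7 and 58.95 in *Mig-6* d/d and 15.3, 17.1 and 17.0 in the double knockout. Each *Mig-6* d/d array was more than double any other array, and the highest of the rest was control replicate 1. *Cdc6* rose by 1.86 (limma adjusted p = 0.00906, SE 0.25) and fell by 1.68 (limma adjusted p = 0.00549, SE 0.25), the largest change among the members in each direction at their brightest probe sets. *Gmnn*, the inhibitor of *Cdt1*, read 82.5, 53.2 and 70.3 in control, 141, 152 and 158 in *Mig-6* d/d and 64.2, 82.6 and 64.5 in the double knockout. Control and double knockout overlapped, well below the *Mig-6* d/d arrays. *Gmnn* rose by 1.15 (limma adjusted p = 0.0104, SE 0.16) and fell by 1.10 (limma adjusted p = 0.00545, SE 0.16). These calls of *Cdc6* and *Gmnn* held without each of the 9 arrays. *Cdt1*, the partner of *Cdc6* in loading, had log2 fold changes of 0.44 (limma adjusted p = 0.0939, SE 0.13) and -0.46 (limma adjusted p = 0.0622, SE 0.13), also without overlap of the arrays. The 6 ORC genes had log2 fold changes of -0.26 (*Orc3*) to 0.48 (*Orc6*) in *Mig-6* d/d, with adjusted p of 0.208 or more (limma). The 3 members with a lower mean in *Mig-6* d/d were all of this complex, namely *Orc1*, *Orc3* and *Orc5*. At a second, dimmer probe set *Orc1* read 10.8, 7.90 and 7.08 in control, 16.6, 22.1 and 15.4 in *Mig-6* d/d and 9.82, 9.70 and 5.55 in the double knockout. There the *Mig-6* d/d arrays were the highest, at levels not far above the arrays' median. That probe set had log2 fold changes of 1.07 (limma adjusted p = 0.0421) and -1.14 (limma adjusted p = 0.0223) and was called in both, where the brightest probe set of *Orc1* had -0.05 and -0.22. The call in *Mig-6* d/d was lost without any 1 of the arrays other than control replicate 1 and double-knockout replicate 3, and that in the double knockout without *Mig-6* d/d replicate 1 or 2 (0.92 to 1.25 and -1.28 to -0.87 over the 9 arrays left out).

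The helicase is switched on by the DBF4-dependent kinase, MCM10, CDC45 and the 4-subunit GINS complex. *Mcm10* read 30.2, 18.8 and 21.1 in control, 52.5, 45.3 and 66.3 in *Mig-6* d/d and 24.4, 27.5 and 23.4 in the double knockout. All *Mig-6* d/d arrays lay above the rest, with the array labelled *Mig-6* d/d replicate 3 the highest. *Mcm10* rose by 1.24 (limma adjusted p = 0.0121, SE 0.19) and fell by 1.11 (limma adjusted p = 0.00919, SE 0.19), and these calls held without each array. *Mcm10* was called in neither when the mean of its probe sets was taken, at 0.39 and -0.36, where its other 2 probe sets read below the arrays' median on average. *Gins2* read 49.9, 35.3 and 37.5 in control, 70.1, 91.8 and 77.3 in *Mig-6* d/d and 44.8, 51.8 and 47.5 in the double knockout. The groups of control and double knockout overlapped, and the *Mig-6* d/d arrays stood above both. *Gins2* rose by 0.97 (limma adjusted p = 0.0127, SE 0.15), a call that held without each array. It fell by 0.73 (limma adjusted p = 0.0197, SE 0.15), a call lost without double-knockout replicate 1 or 3 or *Mig-6* d/d replicate 2 or 3 (-0.81 to -0.62 over the 9 arrays left out). The other GINS genes differed in size, with log2 fold changes in *Mig-6* d/d of 0.73 for *Gins1* (limma adjusted p = 0.13, SE 0.24), 0.25 for *Gins4* and 0.05 for *Gins3*. *Gins4* had -0.55 in the second comparison (limma adjusted p = 0.0242, SE 0.12), under the fold limit. Of the kinase, the activating subunit *Dbf4* had 0.81 (limma adjusted p = 0.0949, SE 0.24) and the catalytic subunit *Cdc7* had 0.03 (limma adjusted p = 0.965, SE 0.20). *Cdc45*, which forms the working helicase with MCM and GINS, had 0.53 in *Mig-6* d/d (limma adjusted p = 0.158, SE 0.19) and -0.63 in the second comparison (limma adjusted p = 0.0732, SE 0.19).

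Polymerase alpha with primase starts each new strand, and polymerases delta and epsilon extend it. *Prim1*, the catalytic subunit of primase, had the smallest p of the 8 genes and read 137, 100.4 and 112 in control, 153, 208 and 159.8 in *Mig-6* d/d and 123, 137 and 100.4 in the double knockout. The *Mig-6* d/d arrays were higher than all others, *Mig-6* d/d replicate 2 most of all. Its log2 fold changes were 0.57 (limma adjusted p = 0.0923, SE 0.17) and -0.53 (limma adjusted p = 0.0907, SE 0.17). *Pole2*, the second subunit of polymerase epsilon, had 0.65 (limma adjusted p = 0.0992, SE 0.19). The alpha subunit genes *Pola1* and *Pola2* had 0.45 and 0.19, the primase partner *Prim2* 0.32, the catalytic subunit of epsilon *Pole* 0.35, and the delta subunits *Pold1* and *Pold2* 0.10 and 0.08. All 8 were higher in *Mig-6* d/d, with a median of 0.33. In the double knockout 7 of them were lower than in *Mig-6* d/d, with a median of -0.16.

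PCNA is the clamp that tethers polymerases to DNA, and the replication factor C complex (RFC) loads it. *Pcna* read 1071, 805 and 702 in control, 1431, 1285 and 1345 in *Mig-6* d/d and 936, 897 and 803 in the double knockout. The *Mig-6* d/d arrays were the 3 highest, and control replicate 1 came next. *Pcna* rose by 0.68 (limma adjusted p = 0.0375, SE 0.15) and fell by 0.62 (limma adjusted p = 0.0324, SE 0.15). *Rfc3* read 43.8, 31.1 and 36.7 in control, 63.7, 73.4 and 64.0 in *Mig-6* d/d and 35.9, 28.9 and 33.5 in the double knockout. Its *Mig-6* d/d arrays were far from the other 6. *Rfc3* rose by 0.86 (limma adjusted p = 0.0143, SE 0.14) and fell by 1.04 (limma adjusted p = 0.00406, SE 0.14), and both calls held without each array. *Rfc4* read 73.0, 46.0 and 47.1, 69.0, 88.6 and 68.3 and 40.5, 53.5 and 36.8 in these groups. In this gene control replicate 1 lay among the *Mig-6* d/d arrays, so that control and *Mig-6* d/d overlapped while the double knockout lay below *Mig-6* d/d. *Rfc4* had 0.47 in *Mig-6* d/d (limma adjusted p = 0.257, SE 0.20) and fell by 0.80 in the double knockout (limma adjusted p = 0.0442, SE 0.20).

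*Rfc5* read 101, 82.8 and 75.8 in control, 124, 150.3 and 114 in *Mig-6* d/d and 88.3, 87.1 and 79.8 in the double knockout. *Mig-6* d/d was again the highest, *Mig-6* d/d replicate 2 by a wide margin. The change in *Mig-6* d/d was 0.58 (limma adjusted p = 0.0473, SE 0.14), just short of the fold limit, and *Rfc5* fell by 0.60 (limma adjusted p = 0.0289, SE 0.14), just past it. The large subunit *Rfc1* had 0.11 (limma adjusted p = 0.614, SE 0.09) and *Rfc2* had 0.29 (limma adjusted p = 0.12, SE 0.09). Without 1 array most calls of *Pcna* and of the loader were lost, those of *Rfc3* apart. In *Mig-6* d/d, *Pcna* was called without control replicate 1 and not without any 1 of the other 8 arrays (0.54 to 0.85, adjusted p up to 0.118, limma). The fall of *Pcna* was not called without any 1 array of these groups (-0.67 to -0.56). There, *Rfc4* was not called without any 1 library labelled *Mig-6* d/d or double-knockout replicate 1 or 3 (-0.95 to -0.67), nor *Rfc5* without *Mig-6* d/d replicate 1 or 2 or any 1 double-knockout array (-0.68 to -0.48).

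Replication protein A (RPA), a trimer, coats single-stranded DNA at the fork. Its smallest subunit, *Rpa3*, read 151, 116 and 134 in control, 184, 234 and 214 in *Mig-6* d/d and 146, 136 and 135 in the double knockout. The double-knockout arrays lay within the range of the controls, and all *Mig-6* d/d arrays above it. *Rpa3* rose by 0.66 (limma adjusted p = 0.0246, SE 0.12) and fell by 0.59 (limma adjusted p = 0.0209, SE 0.12). The other subunits had log2 fold changes of 0.46 in *Mig-6* d/d for *Rpa2* (limma adjusted p = 0.162, SE 0.17) and 0.11 for *Rpa1* (limma adjusted p = 0.731, SE 0.12). The rise of *Rpa3* was lost when control replicate 2, *Mig-6* d/d replicate 2 or the array labelled *Mig-6* d/d replicate 3 was left out (0.56 to 0.75), and its fall without *Mig-6* d/d replicate 2 or 3 or any 1 double-knockout array (-0.69 to -0.52).

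The lagging strand is made in Okazaki fragments, whose RNA primers are removed and whose ends are joined. *Fen1*, the nuclease that trims the flaps, read 232, 257 and 208 in control, 313, 316 and 329.9 in *Mig-6* d/d and 237, 228 and 242 in the double knockout. The *Mig-6* d/d arrays were tightly grouped above both other groups. The changes of 0.47 (limma adjusted p = 0.0359, SE 0.10) and -0.44 (limma adjusted p = 0.0277, SE 0.10) passed the p threshold and not the fold limit. A dimmer probe set of *Fen1* read 58.2, 31.3 and 38.8 in control, 94.0, 92.3 and 95.01 in *Mig-6* d/d and 51.7, 46.15 and 52.1 in the double knockout. It was called in both comparisons, with 1.18 (limma adjusted p = 0.0134; not without *Mig-6* d/d replicate 1) and -0.91 (limma adjusted p = 0.0195; not without double-knockout replicate 1 or 2 or *Mig-6* d/d replicate 1 or 3), over 0.98 to 1.43 and -0.94 to -0.85 with 1 array left out. *Lig1*, the ligase of these fragments, had 0.46 (limma adjusted p = 0.066, SE 0.12) and -0.42 (limma adjusted p = 0.0651, SE 0.12), and *Rnaseh2a*, which helps remove primers, had 0.06 and -0.15.

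Ribonucleotide reductase, made of a large subunit (*Rrm1*) and a small one (*Rrm2*), turns ribonucleotides into deoxynucleotides. *Rrm1* read 207, 132 and 161 in control, 258, 266 and 298 in *Mig-6* d/d and 142, 187 and 166 in the double knockout. All *Mig-6* d/d values of *Rrm1* lay above the others. *Rrm1* rose by 0.74 (limma adjusted p = 0.0407, SE 0.16) and fell by 0.74 (limma adjusted p = 0.0267, SE 0.16). *Rrm2* read 237, 132 and 156 in control, 245, 370.1 and 291 in *Mig-6* d/d and 136, 223 and 178 in the double knockout. Its lowest *Mig-6* d/d array lay just above control replicate 1 and above the highest double-knockout array. Its change in *Mig-6* d/d was 0.81 (limma adjusted p = 0.103, SE 0.24) and that to the double knockout -0.76 (limma adjusted p = 0.0977, SE 0.24). Of its dimmer probe sets 1 was called in both, with 0.87 (limma adjusted p = 0.0176) and -0.79 (limma adjusted p = 0.0149). The first call was lost without control replicate 2 or *Mig-6* d/d replicate 3 (0.77 to 1.01 over the 9 arrays left out), the second without double-knockout replicate 2 or *Mig-6* d/d replicate 3 (-0.91 to -0.68). *Tk1*, the thymidine kinase of the salvage route, had 0.68 (limma adjusted p = 0.0545, SE 0.17) and -0.51 (limma adjusted p = 0.108, SE 0.17) without overlap of the arrays. *Tyms*, which makes thymidylate from its precursor, read 3.95 to 8.05, around or below the arrays' median, and had 0.29 in *Mig-6* d/d (limma adjusted p = 0.553, SE 0.21). *Rrm1* was called in *Mig-6* d/d without control replicate 1 or double-knockout replicate 1, and not without any 1 of the other 7 arrays (0.58 to 0.91). Its fall was not called without any 1 library labelled *Mig-6* d/d or double-knockout replicate 1 or 3 (-0.83 to -0.63).

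**Figure D3:**
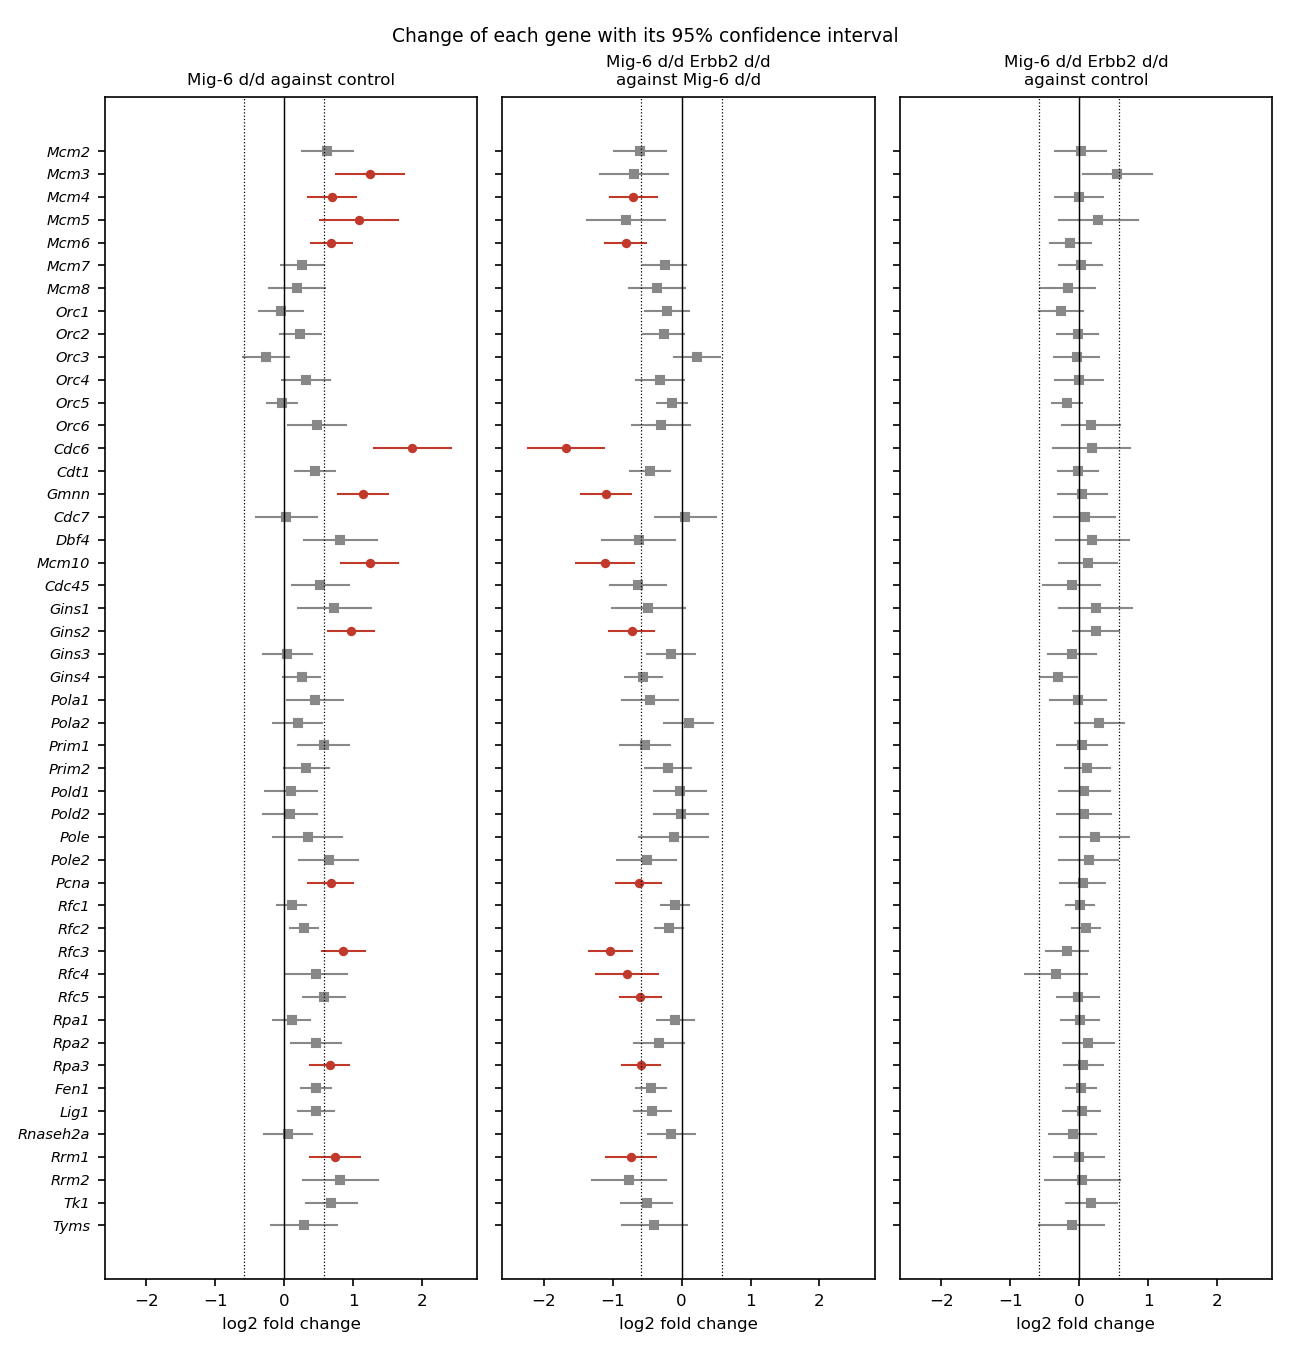
Log2 fold change of each of the 48 members with its 95% confidence interval from limma, in 3 panels for the 3 comparisons; red circles are called, grey squares are not, and dotted lines mark 1.5-fold. The left panel lies mostly to the right of 0, the middle panel mostly to the left, and the right panel lies around 0 with no call.

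The double knockout was also set against control. No member was called in limma, in either direction, where 0.214% of all genes were called increased and 0.198% decreased (0.198% and 0.160% of all probe sets). The median log2 fold change of the members was 0.03, with 30 higher and 18 lower, beside 0.01 over all genes. In limma 2 members had an unadjusted p under 0.05, *Mcm3* (0.56, 95% confidence interval 0.06 to 1.05) and *Gins4* (-0.30, interval -0.57 to -0.03). Of all 18193 genes, 1450 had such a p. With the fold limit added there were 0 members, in limma and by the unpaired t-test. Of all genes, limma then gave 183 higher and 169 lower, and the t-test 0.627% and 0.533%. The lack of a call does not show a gene to be at the control level. The 95% interval of the change lay within 1.5-fold in 38 of the 48 members (79.2%), and in 79.9% of all genes. The intervals of the remaining 10, which were *Mcm3*, *Mcm5*, *Orc6*, *Cdc6*, *Dbf4*, *Gins1*, *Pola2*, *Pole*, *Rfc4* and *Rrm2*, reached past that limit. For *Cdc6* the log2 difference was 0.18 with an interval of -0.37 to 0.73, and for *Pcna* it was 0.05 with an interval of -0.27 to 0.38. Control replicate 1 weighed on this comparison. Without it the members' median was 0.16 and *Mcm3* was called increased in the double knockout (0.86, limma adjusted p = 0.044), while without control replicate 2 or 3 the median was -0.01 and -0.02. It was also below 0, at -0.02, without double-knockout replicate 2.

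The levels were not uniform within groups. Control replicate 1 was the highest of the 3 controls in 39 of the 48 members, control replicate 3 was the lowest in 26 and control replicate 2 in 21. Among the arrays labelled *Mig-6* d/d, replicate 2 was the highest in 32 members, and in the double knockout replicate 3 was the lowest in 31. As the median deviation of the members from their own mean over 9 arrays, control stood at 0.05, -0.24 and -0.31, *Mig-6* d/d at 0.18, 0.44 and 0.27, and the double knockout at -0.11, -0.06 and -0.29 on the log2 scale. The 3 *Mig-6* d/d arrays were above the other 6 by this measure. Without control replicate 1, 19 members were called increased in *Mig-6* d/d (3.24% of all genes). When the array labelled *Mig-6* d/d replicate 3 was left out, whose *Errfi1* was near control, 5 members were called increased, *Cdc6*, *Gmnn*, *Mcm10*, *Gins2* and *Rfc3*, with 0.797% of all genes, and the members' median was 0.48. In the second comparison, with that library left out, 6 members were called decreased, *Mcm6*, *Cdc6*, *Gmnn*, *Mcm10*, *Rfc3* and *Rfc5*, with 2.17% of all genes, and the median was -0.48. Leaving out any 1 of the 9 arrays, 5 of the 12 members called increased in *Mig-6* d/d were called each time, the same *Cdc6*, *Gmnn*, *Mcm10*, *Gins2* and *Rfc3*. In the second comparison these were 5 of 12, *Mcm6*, *Cdc6*, *Gmnn*, *Mcm10* and *Rfc3*.

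The arrays held 103 probe sets for the 48 members, and 34 members had several. In *Mig-6* d/d, 24 of the 103 were called increased and 0 decreased, beside 1.71% of all probe sets called increased. In the second comparison 24 were called decreased and 0 increased, beside 2.75% of all probe sets called decreased. Beside the brightest probe sets, a dimmer one was called increased in *Mig-6* d/d in 4 further members, *Fen1*, *Mcm2*, *Orc1* and *Rrm2*, which brings the members called at any probe set to 16 (33.3%), beside 3.19% of all genes. In the second comparison 6 were added, *Fen1*, *Mcm2*, *Mcm3*, *Mcm5*, *Orc1* and *Rrm2*, which brings them to 18 (37.5%), beside 4.88% of all genes. Members had more probe sets each than other genes, 2.15 against 1.92 on average. The dimmer probe set of *Mcm5* fell by 0.74 (limma adjusted p = 0.033), a call lost without any 1 array of these groups (-0.85 to -0.60). The dimmer probe set of *Mcm2* read 89.2, 82.9 and 74.1 in control, 143, 145 and 137 in *Mig-6* d/d and 91.1, 74.0 and 75.8 in the double knockout, with little spread inside each group. Its log2 fold changes were 0.79 (limma adjusted p = 0.0104) and -0.82 (limma adjusted p = 0.00406), and both calls held without each of the 9 arrays. So did both calls at a dimmer probe set of *Mcm3*, at 0.97 (limma adjusted p = 0.00873) and -0.77 (limma adjusted p = 0.00781), where control replicate 1 stood less far from the others, at 61.9 against 50.3 and 46.7. Of the 103 probe sets, 92 were higher and 11 lower in *Mig-6* d/d, beside 20113 higher of all 45037. In the second comparison 88 were lower and 15 higher, beside 20262 lower of all 45037. Of the 71 member probe sets with a mean intensity over 20, 68 were higher in *Mig-6* d/d. Lower in the double knockout than in *Mig-6* d/d were 67 of the same 71.

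**Figure D4:**
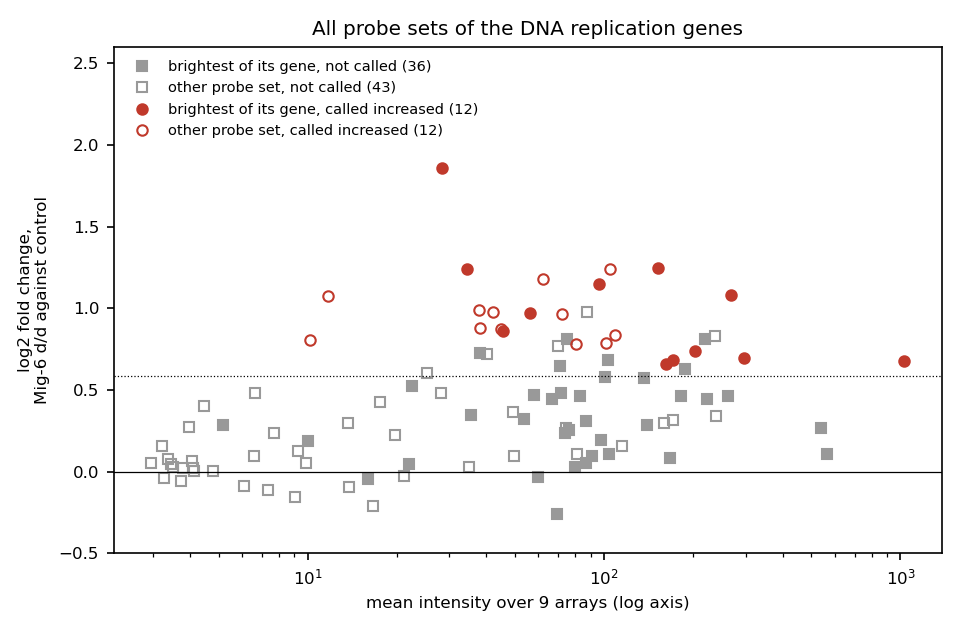
All 103 probe sets of the members, with the mean intensity over 9 arrays (log axis) against the log2 fold change of *Mig-6* d/d against control; filled marks are the brightest probe set of each gene, open marks the others, red circles are called increased and the dotted line marks 1.5-fold. Probe sets under an intensity of about 10 mostly lie near 0, and the called ones lie between 0.66 and 1.86.

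Genes of the same processes outside the module were read from lists chosen with earlier results known. By rule up to 2 genes with the largest called changes were named per list and direction. The few others called were named after their values were seen. Beside the counts of each list, 44.85% of all genes were higher in *Mig-6* d/d and 2.55% were called increased. In the second comparison 43.86% of all genes were lower and 3.76% were called decreased. Of 26 further genes of the replication fork, 22 were higher in *Mig-6* d/d and 5 were called increased, with a median log2 fold change of 0.30. They were *Dscc1*, which loads PCNA for cohesion (1.52, limma adjusted p = 0.0362), *Dna2*, a flap nuclease (0.92, limma adjusted p = 0.0137), the checkpoint mediator *Clspn* (0.89), the polymerase alpha adaptor *Wdhd1* (0.66) and *Topbp1*, a scaffold of origin firing (0.60). In the second comparison 22 of the 26 were lower and 5 were called decreased, with -1.64 for *Dscc1* (limma adjusted p = 0.0172), -0.72 for *Dna2* (limma adjusted p = 0.0192), -0.62 for *Clspn*, -0.63 for *Wdhd1* and -0.62 for *Topbp1*. Of 28 measured genes of nucleotide synthesis, 24 were higher, with a median of 0.22, and 1 was called increased. This was *Shmt1*, the serine hydroxymethyltransferase that feeds one-carbon units to thymidylate, which rose by 0.89 (limma adjusted p = 0.00819). In the double knockout *Shmt1* fell by 1.19 (limma adjusted p = 0.000863), again the sole call of that list.

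Of 22 genes of E2F factors and S-phase entry, 19 were higher in *Mig-6* d/d, with a median of 0.36, and 2 were called increased, *E2f8* (0.97, limma adjusted p = 0.0229) and *Rbl1* (0.83, limma adjusted p = 0.0457). *E2f8* encodes a repressor of the E2F family and *Rbl1* a pocket protein that binds E2F factors. Called decreased in the second comparison were 4, *E2f8* (-1.04, limma adjusted p = 0.00969), the checkpoint kinase gene *Chek1* (-0.88, limma adjusted p = 0.0323), *Fbxo5* (-0.81), whose product restrains the anaphase-promoting complex, and *E2f3* (-0.64). Of 19 measured genes of mitosis, 17 were higher in *Mig-6* d/d, with a median of 0.31, and 1 was called increased, the spindle checkpoint gene *Mad2l1* (1.08, limma adjusted p = 0.0353). Of the 19, 17 were lower in the second comparison, and *Mad2l1* was the sole gene called decreased (-0.89, limma adjusted p = 0.0466). In the double knockout against control no gene of these 4 lists was called by limma, and each list had 1 gene with an unadjusted p under 0.05.

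Most of these calls were lost without at least 1 of the arrays. *Shmt1* was called in both of its comparisons without each of the 9 arrays (0.80 to 0.98 and -1.29 to -1.11), and so was the fall of *E2f8* (-1.23 to -0.86). All other increases called in the 4 lists were lost when control replicate 2, or the array labelled *Mig-6* d/d replicate 3, was left out. No further array ended the rise of *Dna2* (0.79 to 1.08) or *E2f8* (0.79 to 1.16). That of *Clspn* was also lost without *Mig-6* d/d replicate 1 (0.77 to 1.07), and that of *Mad2l1* without double-knockout replicate 2 or *Mig-6* d/d replicate 1 or 2 (0.89 to 1.18). The rises of *Dscc1* (1.31 to 1.95) and *Wdhd1* (0.56 to 0.77) were called without control replicate 1 or double-knockout replicate 2 alone, and those of *Topbp1* (0.48 to 0.75) and *Rbl1* (0.57 to 1.04) without control replicate 1 alone. All decreases but those of *Shmt1* and *E2f8* were lost without double-knockout replicate 1. *Dscc1* was also lost without double-knockout replicate 3 (-1.82 to -1.45), *Dna2* without that array or *Mig-6* d/d replicate 2 or 3 (-0.88 to -0.59), and *Wdhd1* without that array or *Mig-6* d/d replicate 1 or 2 (-0.75 to -0.54). *Topbp1* needed each array of both groups (-0.69 to -0.53), and *E2f3* (-0.77 to -0.55) and *Chek1* (-1.02 to -0.72) each *Mig-6* d/d array and double-knockout replicates 1 and 3. *Clspn* (-0.71 to -0.52) and *Fbxo5* (-0.88 to -0.73) were called without control replicate 1 or 2 alone, and *Mad2l1* (-1.13 to -0.68) without control replicate 2 or double-knockout replicate 3 alone. With the mean taken over a gene's probe sets, the rises of *Shmt1*, *E2f8*, *Clspn*, *Dna2*, *Topbp1* and *Rbl1* were not called, nor were the falls of *E2f8*, *Clspn*, *Dna2*, *Topbp1*, *E2f3* and *Chek1*.

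The arrays also differed in the markers of cell types. Measured against control, all 14 epithelial markers on the arrays were higher in *Mig-6* d/d and 7 were called increased, and all 14 were lower in the double knockout than in *Mig-6* d/d with 10 called decreased. Of all genes 44.85% were higher in *Mig-6* d/d and 2.55% called increased, and in the second comparison 43.86% were lower and 3.76% called decreased. Over the 9 arrays left out in turn, the epithelial increases ran from 1 to 10, beside 0.737% to 3.24% of all genes. The epithelial decreases ran from 4 to 11, beside 1.76% to 4.24% of all genes. The increases numbered 1 without control replicate 2 or *Mig-6* d/d replicate 1 or 3, 4 without double-knockout replicate 1, and 3 without that group's replicate 2 or control replicate 1. The decreases numbered 4 without double-knockout replicate 1 and 6 without *Mig-6* d/d replicate 3. Summed over the list, epithelial marker intensity ran from 3123 to 5654 on the control arrays, from 8270.0 to 12629.8 on the *Mig-6* d/d arrays and from 2859 to 4132 on the double-knockout arrays. All 12 stromal markers, 7 smooth muscle markers and 6 endothelial markers were lower in *Mig-6* d/d, with 2, 0 and 2 called decreased. Set beside *Mig-6* d/d, the double knockout had all of them higher, with 2, 4 and 4 called increased. Of all genes 55.15% were lower in *Mig-6* d/d and 1.81% called decreased, and in the second comparison 56.14% were higher and 3.73% called increased. With arrays left out, the decreases ran from 1 to 4 for stroma and from 0 to 3 for endothelium, and were 0 for smooth muscle. The increases ran from 1 to 4, 1 to 5 and 1 to 4 for stroma, smooth muscle and endothelium. Of all genes, the same fits called 0.456% to 2.32% decreased in *Mig-6* d/d and 1.67% to 4.18% increased in the second comparison. Stromal decreases numbered 1 without control replicate 2, *Mig-6* d/d replicate 1 or 3 or double-knockout replicate 1 or 3, and 4 without control replicate 3, and endothelial decreases 0 without control replicate 2 or *Mig-6* d/d replicate 1. Stromal increases numbered 1 without double-knockout replicate 1 and 4 without control replicate 3. Smooth muscle increases numbered 1 without *Mig-6* d/d replicate 1 or 2 or double-knockout replicate 1 or 3, and 2 without double-knockout replicate 2. Endothelial increases numbered 1 without *Mig-6* d/d replicate 1 or 2 or double-knockout replicate 1 or 2. Their sums in control, *Mig-6* d/d and double knockout were 24749.7 to 29246, 20748 to 24812 and 28164 to 29308 for stroma, 12669 to 16706, 8602 to 11961 and 15384 to 18978 for smooth muscle, and 613 to 715, 349 to 432 and 531 to 696 for endothelium. No marker of these 4 lists had a mean under the arrays' median. Of 8 leukocyte markers 5 were higher and 1 was called decreased (sums 786 to 1040, 708 to 891 and 843 to 1204). Of 6 markers of the preimplantation embryo 5 had a mean under the arrays' median and none was called by limma in *Mig-6* d/d, where 1 had an unadjusted p under 0.05 (sums 80.4 to 95.4, 54.95 to 79.3 and 86.6 to 121). Within groups the replication genes and the epithelial markers took different orders. In *Mig-6* d/d, replicate 2 had the highest median deviation of the members (0.44) and the lowest of the epithelial markers (0.70, beside 1.15 and 1.18). In control, replicate 3 had the lowest of the members (-0.31) and the highest of the epithelial markers (0.07, beside -0.61 and -0.92). The part of cell composition in the changes of the replication genes was not tested.

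**Figure D5:**
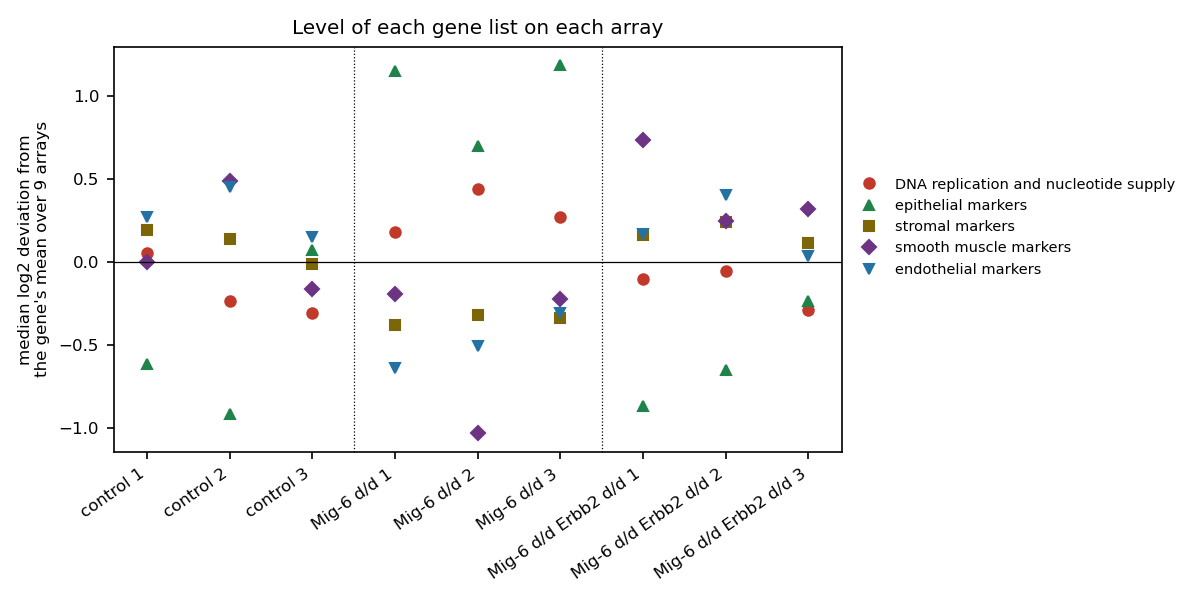
Median log2 deviation from each gene's mean over 9 arrays (vertical axis) for the members and for the markers of 4 cell types, on each of the 9 arrays (horizontal axis, groups divided by dotted lines). Members (red) and epithelial markers (green) are above 0 on all 3 *Mig-6* d/d arrays, where stromal, smooth muscle and endothelial markers are below 0.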

How the data were processed

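RNA of whole uteri at GD 3.5 was hybridised to 9 Affymetrix mouse genome arrays, 3 per group. The authors deposited linear intensities per probe set. The submitters' processing notes name RMA, and the methods name quantile normalization in Bioconductor, with versions not given in the sources used here. Such normalization gives all arrays nearly 1 distribution and would hide a shift of all genes together.

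The intensities were taken to log2 and fitted over all 9 arrays and all 45037 probe sets in 1 model per probe set in limma 3.58.1 (statmod 1.5.0, R 4.3.3), with a moderated variance and Benjamini-Hochberg adjustment over all probe sets. The threshold was an adjusted p of 0.05 with a change over 1.5-fold. By platform annotation, 1 gene symbol was given to 34945 probe sets, several to 932 and none to 9160, and only the first kind was named (34741 matched RefSeq by Entrez number, with 0 symbols changed). A gene was read at the probe set of highest mean intensity. Members and lists were chosen with earlier results of these data known. All 48 members were described by role, called members with their values on each array, along with the member of smallest p in roles without a call. Of 152 pathway and marker genes 148 were used here. No pair of arrays shared more than 350 identical values. The same steps were tested on simulated data with known changes. For *Mig-6* d/d against control, 18% of 50 changes of 1.5-fold were recovered, 68% at 2-fold, 88% at 3-fold and 96% at 4-fold. Changes of 1.5-fold lie at the fold limit of a call, so the limit itself lowers their recovery. There were 5 false calls over 45037 probe sets. Fold changes that the study tabulated were not used. The alternatives left out dim probe sets, or used repeated quantile normalization, centring, trended and robust variance, array weights or a replicate block. Others were fits on 6 arrays, each array left out, other thresholds, the unpaired t-test and other ways to pick or average probe sets. Promoters were RefSeq windows of GRCm38.p6, read in Python 3.11.15 with pandas 2.3.3 and numpy 2.4.6, and plots were drawn with matplotlib 3.10.9.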

Additional observations from a re-analysis of the deposited data

How the results depend on the processing

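No called member changed sign under any alternative run. With each array left out in turn, the members called ran from 5 to 19 for the first comparison (*Mig-6* d/d and control), from 5 to 15 for the second comparison (double knockout and *Mig-6* d/d) and from 0 to 1 for the third (double knockout and control). Of all genes, the same fits called 0.737% to 3.24% increased in the first and 1.76% to 4.24% decreased in the second. The members' median log2 fold change ran over the alternatives from 0.37 to 0.56, from -0.52 to -0.38 and, with arrays left out, from -0.02 to 0.16. The fit on only the 6 arrays compared called 6 members in the first comparison, *Mcm6*, *Cdc6*, *Gmnn*, *Mcm10*, *Gins2* and *Rfc3*, beside 1.3% of all genes called increased. In the second comparison it called 15 members, beside 4.51% of all genes called decreased. The unpaired t-test with Benjamini-Hochberg adjustment called 0 in the first comparison and 0 in the second. At an unadjusted p it gave 15 and 16, beside 3.31% increased and 4.66% decreased of all genes. The other settings that kept all arrays, the replicate block apart, called 11 to 16 and 9 to 17, and of all genes 2.36% to 4.65% and 3.57% to 6.39%. The rise of *Mcm5* was lost after repeated quantile normalization (1.04, limma adjusted p = 0.0516) and after centring (1.12, limma adjusted p = 0.0514). Repeated quantile normalization also ended the falls of *Pcna*, *Rfc5* and *Rpa3*, and array weights that of *Rfc5*. The causes of these differences were not tested.

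With the replicate block, 10 members were called in the first comparison, 12 in the second and 0 in the third, beside 3.01% of all genes increased and 4.07% decreased in the first and second. The rises of *Mcm4*, *Mcm5* and *Rrm1* were lost under it, as were the rise of *Rbl1* and the falls of *Clspn*, *E2f3* and *Fbxo5* outside the module. Deviations of the 9 pairs of arrays that share a number correlated at -0.133 to 0.203, 3 of them over 0.1. Those of the 18 pairs with other numbers correlated at -0.303 to 0.332, 4 of them over 0.1. The labels do not say what the numbers mean. With so few arrays per group, these correlations cannot tell whether arrays with the same number shared a batch.

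A member that was not called is not shown to be unchanged. Members near the arrays' median intensity, such as *Tyms* and *Mcm8*, could not be judged against background, because detection calls are not used here.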
